A study of Mus musculus with 23 samples.

Results

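The cytosolic ribosomal protein genes of the mouse were described here across 23 libraries of 3′ mRNA sequencing from PyMT mammary tumors. Members were the protein-coding genes whose symbol names a protein of the small subunit (Rps) or the large subunit (Rpl), together with Rpsa, Rplp0, Rplp1 and Rplp2. Rps6 kinase genes and pseudogenes were left out. The rule took 83 of 47643 genes in the files, 32 of the small and 51 of the large subunit. It rests on names alone, so it also takes Rpl7l1, whose product acts in the assembly of the large subunit, and it leaves out genes such as Fau and Rack1, which encode ribosomal proteins under other names.

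All tumors came from female mice on a C57BL/6 background that carry the polyoma middle T oncogene (PyMT) under a mammary promoter. In the neutralization experiment, 5 libraries are from wild-type mice given a human IgG1 isotype control (IgG) and 6 from mice given anti-IL-38 (clone e04), an antibody against the cytokine IL-38, with weekly doses of 100 µg over 5 weeks once the first tumor had reached 0.6 cm. In the genotype experiment, 4 libraries are from wild-type mice (WT_IgG) and 4 from IL-38 knockout mice (KO_IgG) given hamster IgG, and 4 from IL-38 knockout mice (KO_gdTCR) given anti-γδTCR (clone UC7-13D5), which blocks the γδ T-cell receptor. These 3 groups were dosed with 500 µg first and 200 µg later, for 5 weeks from an age of 13 weeks. Whole tumors were dissociated and each library stands for 1 labelled sample. The IL-38 knockout is constitutive, so it acts in every cell and not in the tumor alone.

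Ribosomal proteins are the protein part of the cytosolic ribosome. They are made in nearly every cell in amounts that fit each other, and their messages are among the most abundant in a tissue. Most of these messages start with a C followed by a run of pyrimidines, the 5′ TOP motif, through which the kinase mTORC1 and the protein Larp1 control their translation. Each protein is usually encoded by 1 working gene, while the mouse genome holds many processed pseudogenes of it, which are reverse-transcribed copies of the message without introns. A 3′ method counts reads near the end of a transcript, so counts are not divided by length here, and levels of different genes are given as reads of a gene per 1000000 reads on genes (CPM).

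The libraries held 6273049 to 15879164 reads on genes. Numbers in the column headers run from 1 to 23, and those numbered 19 to 23 are replicate 4 of KO_IgG and all 4 of KO_gdTCR. These 5 libraries stood apart from the other 18. Gm42418, which overlaps ribosomal RNA, took 11.3% to 20.1% of their reads against 2.62% to 5.70%. The summed level of 5 macrophage markers was 545 to 990 CPM against 6747 to 18470 CPM. Most of the sum in the 18 libraries was Lyz2, which was at 82.6 to 494 CPM in the 5 against 5801 to 16560 CPM. Adgre1, Cd68 and Csf1r were also lower in the 5 without overlap, while C1qa overlapped at 240 to 362 CPM against 310 to 649 CPM. All 5 macrophage markers had reads in both sets, and 5 of 5 epithelial markers, which define the tumor cells, had reads too, with summed levels of 2442 to 3240 CPM against 1311 to 3517 CPM. The part of these differences in the results on ribosomal protein genes was not tested. Within KO_gdTCR against KO_IgG the treatment and the library number cannot be told apart, as only 1 of the 5 late libraries is a control. Il1f10, which encodes IL-38, had 0 reads in all 23 libraries, which allows up to 0.189 to 0.478 CPM (3 reads, counting error only), and the labels of genotype have no check in these libraries.

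The pyrimidine run was searched in the RefSeq promoter sequences of GRCm38.p6, on the strand of the gene, as a C followed by at least 4 bases that are C or T. A promoter sequence was matched to 63 of the 83 members, and a gene with several counts once if any of them holds the run. The run began exactly at the RefSeq start of 13 of these 63 (20.6%), against 3.01% of 27025 genes with a promoter sequence. It began within 10 bases of the start in 39 of 63 (61.9%) against 34.4% of all. The windows below show 15 bases before and 15 after the start for 5 members whose values are described further on, with the run in capitals. Rps6, Rpl15, Rps18 and Rplp2 have the run at the start itself, and Rpl22l1, a paralog of a core member, has it 3 bases downstream.
Rps6 (chr4:86857353-86857382, minus strand): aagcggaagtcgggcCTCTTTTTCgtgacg
Rpl15 (chr14:18270972-18271001, minus strand): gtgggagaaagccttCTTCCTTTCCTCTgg
Rps18 (chr17:33955651-33955680, minus strand): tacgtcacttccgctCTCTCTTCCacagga
Rplp2 (chr7:141447636-141447665, plus strand): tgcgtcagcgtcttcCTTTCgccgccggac
Rpl22l1 (chr3:28805493-28805522, plus strand): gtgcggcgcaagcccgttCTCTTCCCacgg

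The share of reads on ribosomal protein genes overlapped between IgG and anti-IL-38, with a lower median in anti-IL-38. It was lower in the knockout groups than in the wild type. The 5 IgG libraries gave 5.00%, 5.45%, 5.27%, 5.20% and 5.31% (5.25% ± 0.166, SD, n = 5). The 6 anti-IL-38 libraries gave 4.81%, 4.62%, 4.11%, 6.32%, 5.00% and 4.68% (4.92% ± 0.747, SD, n = 6). Their median was 4.75%, against 5.27% in IgG. Replicates 1, 2, 3 and 6 of anti-IL-38 lay below every IgG library, and replicate 3 also below every library of WT_IgG and KO_IgG. Only replicate 4, the highest of all 23 libraries, lay above the IgG range. WT_IgG gave 5.47%, 5.33%, 5.22% and 5.32% (5.33% ± 0.104, SD, n = 4), and KO_IgG gave 4.56%, 4.97%, 4.57% and 4.42% (4.63% ± 0.237, SD, n = 4). KO_gdTCR gave 4.10%, 3.86%, 4.02% and 4.28% (4.06% ± 0.175, SD, n = 4). The 3 groups of the genotype experiment did not overlap in this share, in the order WT_IgG, KO_IgG, KO_gdTCR. Counting error is small beside these differences, as the widest 95% Wilson interval of a library ran from 4.00% to 4.04%. In whole tumors, fewer cells of a type and less RNA per cell cannot be told apart.

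**Figure D1:**
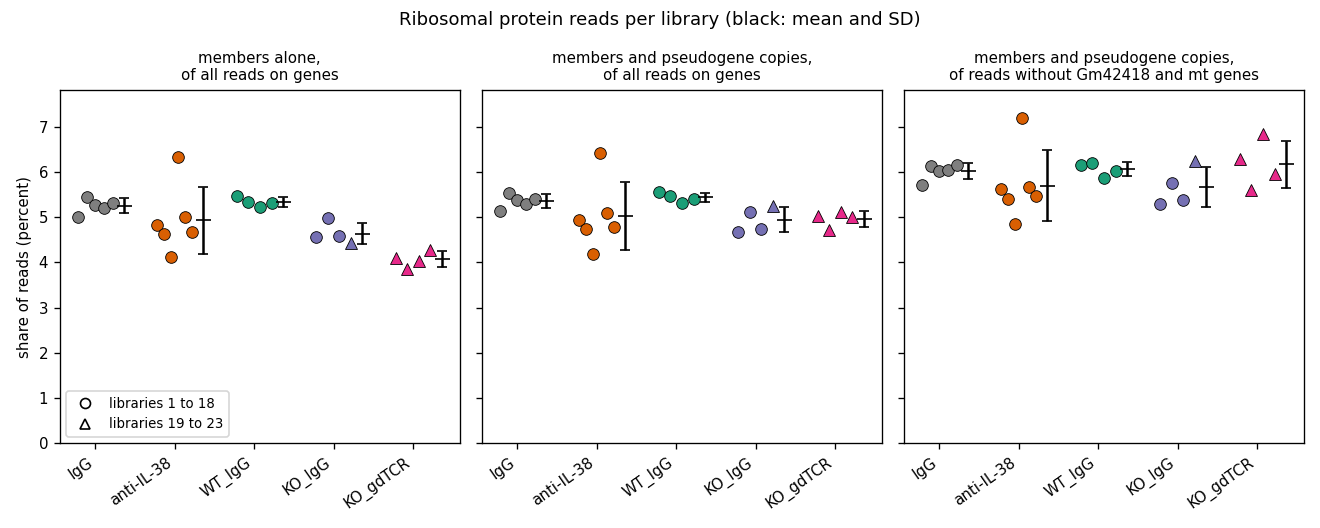
Percent of reads on ribosomal protein genes in each library (vertical axis, percent; horizontal axis, the 5 groups), counted on the members alone, with reads of pseudogene copies added, and with copies added over a total without Gm42418 and mitochondrially encoded genes. Points are libraries, triangles are libraries 19 to 23, and black bars give mean and SD; KO_gdTCR sits lowest at 3.86% to 4.28% in the left panel and between 5.60% and 6.84% in the right panel.

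This order depended on what was counted. When reads on pseudogene copies were added, KO_IgG gave 4.68%, 5.11%, 4.74% and 5.24% and KO_gdTCR gave 5.03%, 4.70%, 5.11% and 5.00%, so these groups overlapped, while WT_IgG stayed above both at 5.31% to 5.56%. When Gm42418 and mitochondrially encoded genes were also taken out of the total, WT_IgG gave 5.85% to 6.19% and KO_gdTCR 5.60% to 6.84%. KO_IgG then gave 5.30%, 5.75% and 5.37% in libraries 16 to 18 and 6.24% in library 19. The small subunit took 48.6% to 53% of the member reads in every library.

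The levels of single members spanned more than 3 orders of magnitude. Rps14, a protein of the small-subunit platform, was highest with a median of 3172 CPM over 23 libraries (1712 to 4644). It was followed by Rplp1, which with Rplp0 and Rplp2 forms the stalk that recruits elongation factors, at 2676 CPM (2020 to 3434), and by Rps26 at 2244 CPM (1468 to 3083). The ranges of these 3 overlap, so their order does not hold in each library. At the low end stood Rpl36 with a median of 2.67 CPM, Rpl39l with 1.68 CPM, Rpl3l with 1.42 CPM and Rpl10l with 0 CPM. Whether a low count means a low message was not tested here. Rps6, the substrate for which the S6 kinases are named, was counted at only 7.18 to 35.2 CPM, and Rpl15 at 10.5 to 27.5 CPM, although both are parts of every ribosome. For 35 of the 83 members, over 50% of the stretches of 75 bases in the last 300 bases of the transcript also occur in another gene, and for 29 members none do. Rps6 has 81.4% of these stretches shared, while Rpl15 has 0%. The medians of these sets were 364 CPM and 457 CPM, and 19 members in between had a median of 682 CPM. The part of shared sequence in the levels was not tested.

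The spread over the libraries differed as much between members as the level. Rpl14 was among the steadiest, between 483 and 793 CPM (SD of log2 values 0.18, n = 23). Rpl36 ranged from 0.441 to 145 CPM (SD 1.71), and Rps18 from 5.13 to 324 CPM (SD 1.5). Rps15 ranged from 13.4 to 835 CPM (SD 1.45), Rpl29 from 0.126 to 24.4 CPM (SD 1.28) and Rpl34 from 39.1 to 717 CPM (SD 1.21). Rpl36 was chosen for naming after its values were seen.

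**Figure D2:**
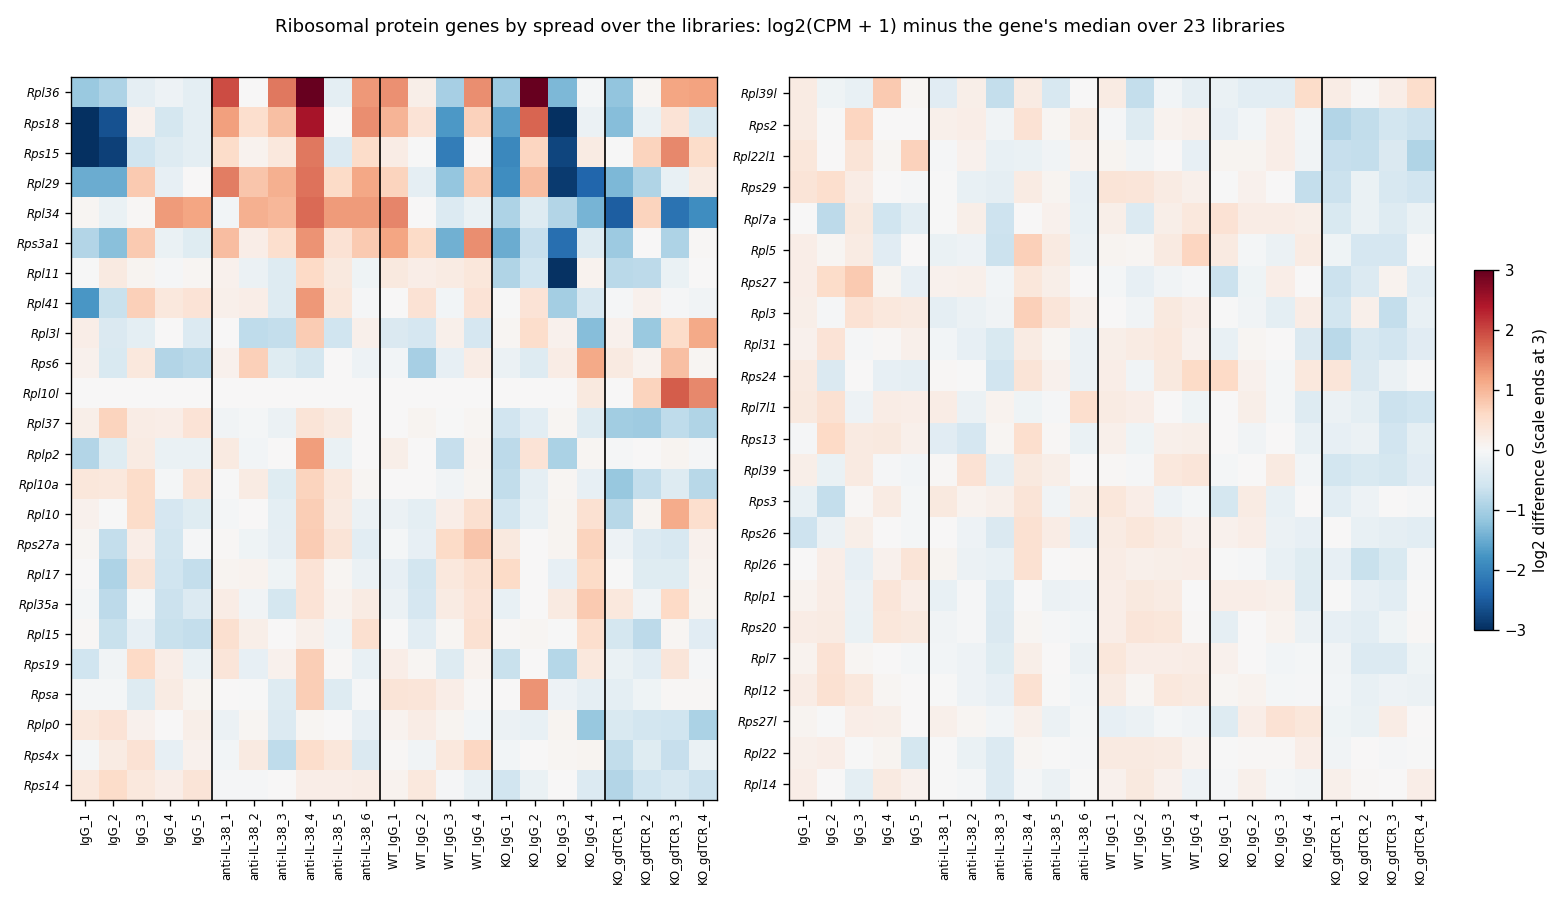
Log2(CPM + 1) of 47 members described in the text minus its median over 23 libraries (color, log2 units, scale ends at 3 in both directions), with genes in rows by falling spread and libraries in columns by group. The upper rows on the left are Rpl36, Rps18, Rps15 and Rpl29. They are red in anti-IL-38 replicate 4, deepest for Rpl36 and Rps18. In IgG replicates 1 and 2 and KO_IgG replicate 3 they are blue to unequal degrees, while the lower rows on the right stay near white.

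Some of the most variable members moved together, Rps15, Rps18 and Rpl36 among them, while Rpl34 did not follow Rps15 (r = 0.10). Over the 23 libraries the level of Rps15 went with Rps18 (Pearson r = 0.89), Rplp2 (r = 0.82), Rpl41 (r = 0.71) and Rpl36 (r = 0.67), as a description over libraries that share the depth and the run of each sample. Rps15 gave 13.4, 39.1, 186, 214 and 228 CPM in IgG, and 330, 276, 65.9 and 281 CPM in WT_IgG. It gave 72.3, 442, 40.7 and 334 CPM in KO_IgG and 280, 444, 762 and 409 CPM in KO_gdTCR. In anti-IL-38 it ranged from 211 to 835 CPM with a median of 379 CPM. Libraries of 1 group thus lay far apart, and IgG replicates 1 and 2, WT_IgG replicate 3 and KO_IgG replicates 1 and 3 were the low ones. Gapdh, a glycolytic enzyme with many pseudogenes that is no ribosomal protein, was also counted low, from 0.932 to 31.4 CPM. Its lowest libraries were IgG replicate 1 at 0.932 CPM and KO_IgG replicate 3 at 2.33 CPM, which are also the lowest for Rps18 at 5.13 and 6.05 CPM. Whether these genes share a cause was not tested.

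Other members followed the sum of all members. The closest were Rpl31 (r = 0.89), Rpl12 (r = 0.86), Rpl26 (r = 0.85), Rpl37 (r = 0.83) and Rpl7 (r = 0.81) over 23 libraries, each being a part of that sum. Among other genes the closest were Arl6ip4 (r = 0.89), Utp3 (r = 0.89), Ndufa10 (r = 0.87), Atp5k (r = 0.87) and Tuba1b (r = 0.87). Of these, Utp3 acts in the processing of ribosomal RNA. The 5 late libraries have both a low sum and their own make-up, so these values describe the 23 libraries together. Rps6 went the other way (r = −0.52).

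Reads on pseudogene copies of the members set the late libraries apart. By symbol or by sequence (at least 85% identity over at least 150 bases and 50% of the copy), 1162 pseudogenes were assigned to 78 members, and 895 had reads. They took 1.38% to 3.44% of all ribosomal protein reads in libraries 1 to 18, but 15.6% in KO_IgG replicate 4 and 18.5%, 18%, 21.3% and 14.4% in KO_gdTCR. No library of the late set overlapped the early set. Of the copies, 222 had a lowest late value above the highest early value and 0 had the reverse. There were 115 copies at 1 CPM or more in all late libraries and below it in all early ones, and 55 of the copies with reads had 0 reads in all 18 early libraries. The same counts over all genes or over other pseudogenes are not given here. Whether the shift is particular to copies of ribosomal protein genes was therefore not tested. The 1 KO_IgG library among the late ones had 15.6% on copies, within the 14.4% to 21.3% of the 4 treated libraries and below 3 of them. A cause of this shift was not tested.

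**Figure D3:**
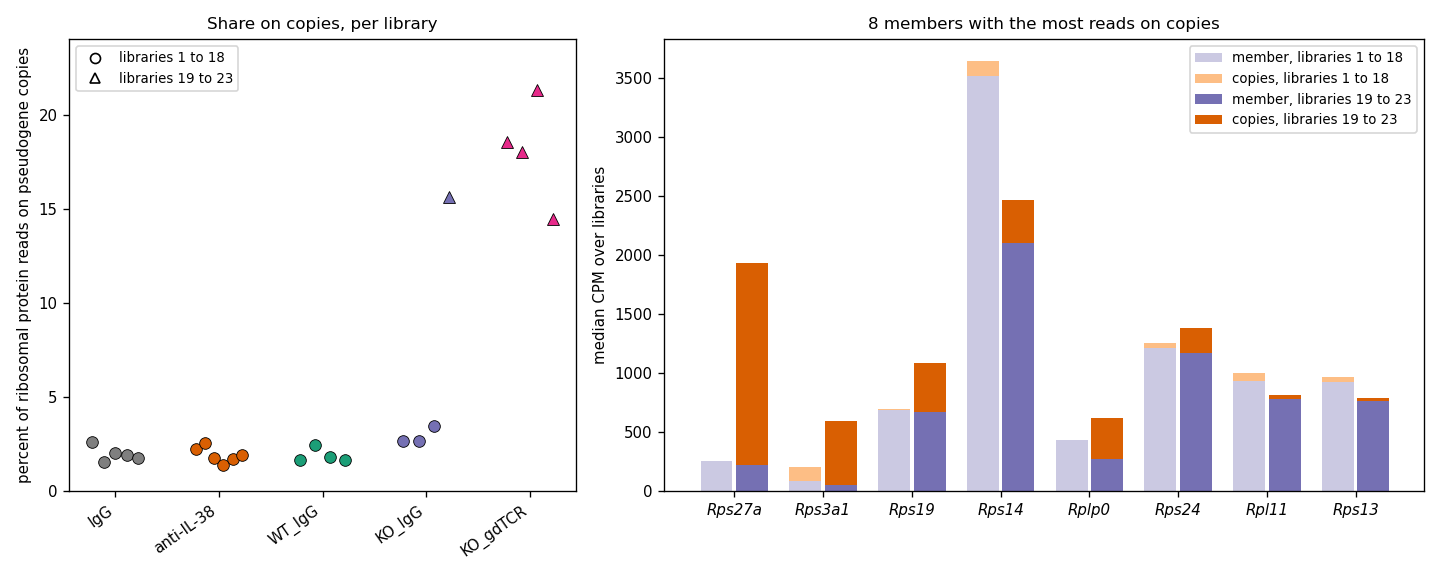
Left, percent of ribosomal protein reads that lie on pseudogene copies in each library (vertical axis, percent; horizontal axis, group; triangles are libraries 19 to 23), at 1.38% to 3.44% in circles and 14.4% to 21.3% in triangles. Right, median CPM of the 8 members with the most copy reads, stacked with the median of their copies, in libraries 1 to 18 (pale) and 19 to 23 (dark), where Rps27a, Rps3a1 and Rplp0 have higher medians on copies than on the member in the late libraries.

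For 5 member and copy pairs the stretches below show a base difference near the 3′ end, or for Rps20 and Gm4332 the only mismatch, since such bases are what can tell a read of the member from one of the copy. Sequences are from GENCODE M21 transcripts, 30 bases each, and the differing bases are in capitals.
Rps13: ttggaaatatgagtcAtccacagcctctgc
Rps13-ps1: ttggaaatatgagtcGtccacagcctctgc
Rps27a: cttactgCttcaacaaaccagaaGacaagt
Gm29228: cttactgTttcaacaaaccagaaAacaagt
Rps3a1: tatgaaccgccagtccaagaatcagtGtaa
Rps3a3: tatgaaccgccagtccaagaatcagtAtaa
Rps3a1: agctggagacgagacGggtgctaaggttga
Gm5586: agctggagacgagacAggtgctaaggttga
Rps20: catcagtattgagccGggagttgaggttga
Gm4332: catcagtattgagccAggagttgaggttga

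Rps27a, which encodes a ribosomal protein fused to ubiquitin, had the most copy reads. Its copy Gm29228 (90.7% identity over 441 bases) was at 0.15 CPM or less in all 18 early libraries and at 1417 to 2199 CPM in the 5 late ones. Rps27a itself was at 152 to 445 CPM early and 177 to 400 CPM late, which overlap. The median of Rps27a and its copies together was 258 CPM early and 2095 CPM late. Rplp0, the base of the stalk, showed another balance, with 311 to 552 CPM early and 188 to 303 CPM late, while its copies were at 2.24 to 7.87 CPM early and 294 to 428 CPM late. With copies summed its median was 440 CPM early and 628 CPM late. Rps19, the gene most often mutated in Diamond-Blackfan anemia, kept its own level at a median of 690 CPM early and 667 CPM late, and its copies had a median of 5.33 CPM early and 414 CPM late. Rps24 had a median of 1215 CPM early and 1170 CPM late, with copies at 36 and 210 CPM. Rps14 was lower in the late libraries, at a median of 2102 CPM against 3515 CPM, and its copies at a median of 365 CPM against 126 CPM were smaller than that difference. Over the whole family, 69 of 83 members had a lower median in the late libraries on their own reads and 46 of 83 with copies summed. These are medians of CPM, and the same count over all genes is not given here. Gm42418 took 11.3% to 20.1% of the late reads against 2.62% to 5.70% of the early ones. The part of that difference in these counts was not tested.

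In 3 pairs the copy took many reads in some tumors and few in others of the same group or set. Rpl11, which together with Rpl5 binds Mdm2 when ribosome assembly is disturbed, gave 473, 583 and 113 CPM in KO_IgG replicates 1 to 3, and its copy Gm10036 (99.3% identity) gave 416, 435 and 810 CPM there. In KO_IgG replicate 4 the values were 962 and 16.9 CPM. In the 15 other early libraries Rpl11 was at 682 to 1338 CPM and Gm10036 at 43.4 to 99.2 CPM. In KO_gdTCR, Rpl11 gave 505, 518, 778 and 888 CPM and Gm10036 gave 437, 375, 20.7 and 19.7 CPM. The sum of Rpl11 and its copies ran only from 726 to 1398 CPM in the early libraries, and across these 18 libraries Rpl11 and Gm10036 had r = −0.80, as a description. Rps13-ps1, a copy of the small-subunit gene Rps13 (99.6% identity over 522 bases, with 2 mismatches), was high in 5 libraries, namely IgG replicates 1 and 3 at 412 and 335 CPM, anti-IL-38 replicates 1 and 2 at 274 and 340 CPM and WT_IgG replicate 2 at 388 CPM. The other 18 libraries had 3.27 to 21.5 CPM on this copy. Rps3a1, whose product sits at the messenger RNA exit of the small subunit, was at 14.4 to 194 CPM in the early libraries, and its copy Rps3a3 was at 54.7 CPM in WT_IgG replicate 3, at 58.6 CPM in anti-IL-38 replicate 2 and at 63.9, 122, 38.9 and 151 CPM in KO_IgG. Across the 18 early libraries r was −0.44 for Rps13 with Rps13-ps1 and −0.52 for Rps3a1 with Rps3a3. By contrast, Gm5586 was at 47 to 141 CPM in all 23 libraries (r = 0.07 with Rps3a1 over the early ones). The cause was not tested.

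**Figure D4:**
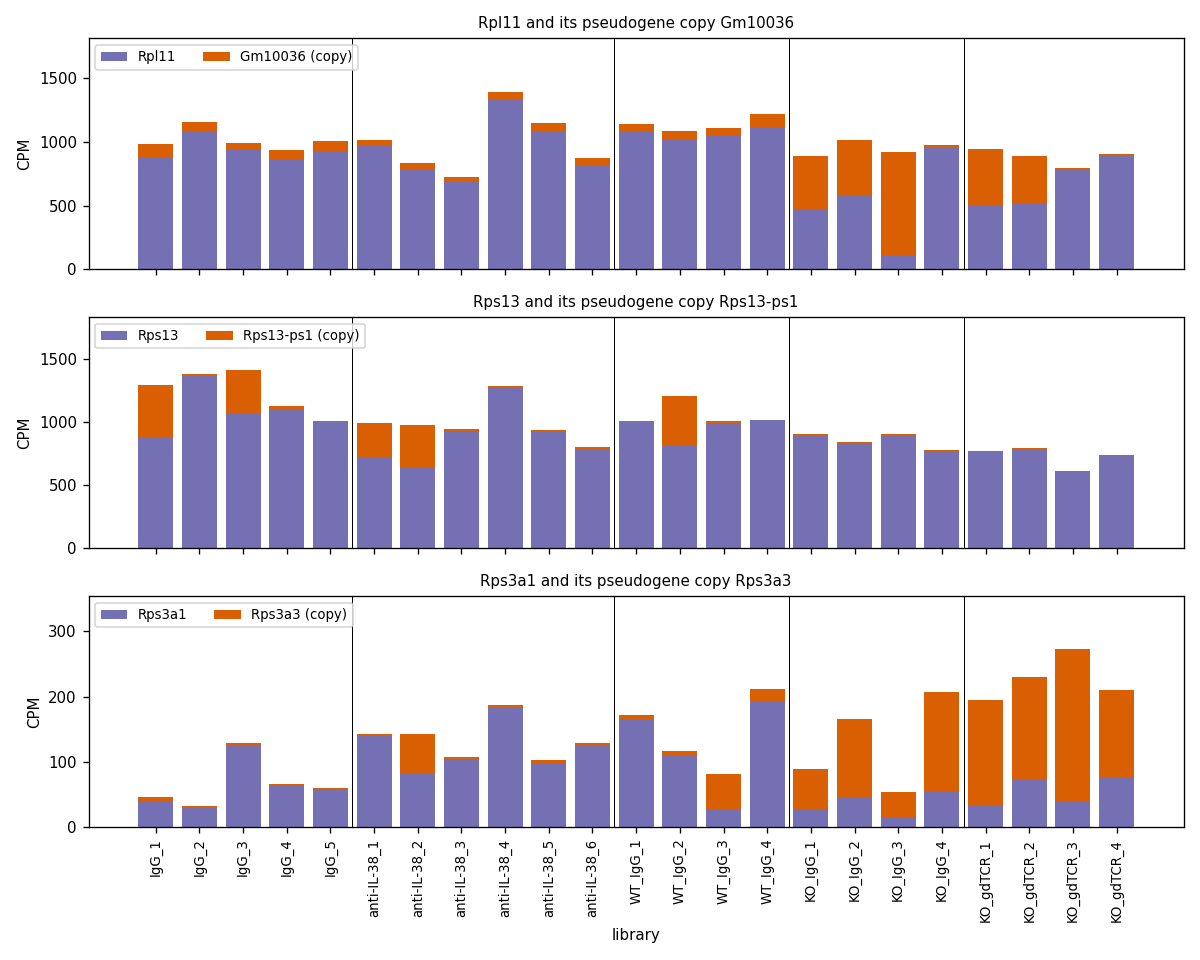
CPM (vertical axis) of Rpl11, Rps13 and Rps3a1 (purple) with 1 pseudogene copy each stacked on top (orange) in each of the 23 libraries (horizontal axis, in group order). Gm10036 takes 416 to 810 CPM in KO_IgG replicates 1 to 3, Rps13-ps1 takes 274 to 412 CPM in 5 libraries of 3 groups, and Rps3a3 is present in all KO_IgG and KO_gdTCR libraries.

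Whether the antibody against IL-38 altered these genes was asked first by comparing anti-IL-38 with IgG. No member passed, and the family as a whole was centred on 0. Of 83 members, 82 had a mean normalized count of at least 5 and were tested, and their median log2 fold change was 0.00, against 0.00 over 16002 genes, with 41 members higher and 41 lower. The small subunit had a median of 0.02 and the large subunit of −0.01. In limma 0 members had an adjusted p under 0.05 (0% of all genes), and the smallest adjusted p of a member was 0.364. At an unadjusted p under 0.05, 10 members were higher, against a background of 5.61% of all genes, and 2 were lower, against 4.91%. Among the 10 are Rps18, Rps15, Rpl36, Rpl29 and Rps3a1, which belong to the variable members described above.

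Rpl29, a large-subunit protein, gave 1.94, 1.95, 13.2, 5.91 and 7.22 CPM in IgG and 11.2 to 24.4 CPM with a median of 16.8 CPM in anti-IL-38. The groups overlapped only through IgG replicate 3, and the mean normalized count was 230 ± 66.3 against 77.1 ± 60.9 (SD; log2 fold change 1.90, SE 0.45, limma adjusted p = 0.364). With pseudogene copies added the log2 fold change of Rpl29 was 1.16. Rpl15, another large-subunit protein, gave 19.5, 11.6, 15.8, 11.6 and 11.1 CPM in IgG and 17.7 to 26.8 CPM with a median of 21.2 CPM in anti-IL-38. Its log2 fold change was 0.73 (SE 0.18, limma adjusted p = 0.373), and it was the 1 member that DESeq2 called on the recovered reads (adjusted p = 0.0422), with 0.47% of all genes called. edgeR called 0 members and 0% of all genes. Rps18, a small-subunit protein, gave 5.13, 8.59, 63.2, 39.8 and 46.9 CPM in IgG and 57.4 to 324 CPM with a median of 122 CPM in anti-IL-38, a log2 fold change of 2.52 (SE 0.63, limma adjusted p = 0.373). IgG replicates 1 and 2 were the lowest in Rpl29, Rps18 and Rps3a1 alike. Rps3a1 had a log2 fold change of 1.14 (SE 0.31, limma adjusted p = 0.376), which was 0.61 with its copies added.

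In the other direction the values were smaller. Rplp0 gave 520, 552, 454, 418 and 467 CPM in IgG and 311 to 433 CPM in anti-IL-38, with a log2 fold change of −0.28 (SE 0.11, limma adjusted p = 0.439). Rpl22l1, the paralog whose level the core protein Rpl22 is known to hold down, had a log2 fold change of −0.30 (SE 0.14), with 113 to 184 CPM in IgG and 97 to 124 CPM in anti-IL-38. Rplp1 had −0.25 (SE 0.13) and Rps20 −0.23 (SE 0.12), and both groups overlapped in all 4 genes.

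The knockout of IL-38 was compared with the wild type under the same IgG treatment. Most members were lower in KO_IgG, by a small amount, and none passed the test. The median log2 fold change of 82 tested members was −0.16 against 0.01 over 16563 genes, with 19 members higher and 63 lower, and it was −0.16 for the small and −0.15 for the large subunit. With the reads of pseudogene copies added it was −0.12, with 26 members higher. In limma 0 members had an adjusted p under 0.05, against 0.00604% of all genes (1 gene), and the smallest adjusted p was 0.295. At an unadjusted p under 0.05, 0 members were higher (background 6.73%) and 6 were lower (background 5.4%). In normalized counts, no member had all 4 KO_IgG libraries above all WT_IgG libraries (background 3.66%), and 6 had all below (background 3.41%), which were Rpl11, Rpl26, Rpl31, Rps29, Rpl7 and Rpl12. Without KO_IgG replicate 4, the late library, the median was −0.17.

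Rpl34, a large-subunit protein, gave 612, 220, 165 and 191 CPM in WT_IgG and 116, 168, 120 and 82.6 CPM in KO_IgG. WT_IgG replicate 1 stood far above the rest and KO_IgG replicate 2 lay within the WT_IgG range, and the log2 fold change was −1.09 (SE 0.36, limma adjusted p = 0.295). DESeq2 called Rpl34 alone among the members (adjusted p = 0.0354), with 2.07% of all genes called, and edgeR called 0 members and 0% of genes. Rps3a1 gave 166, 109, 26.0 and 194 CPM in WT_IgG and 25.2, 44.3, 14.4 and 55.7 CPM in KO_IgG (log2 fold change −1.64, SE 0.59, limma adjusted p = 0.323). With its copies added the log2 fold change of Rps3a1 was 0.03, so the direction did not hold. Rpl11 gave 1087, 1017, 1057 and 1119 CPM in WT_IgG against 473, 583, 113 and 962 CPM in KO_IgG, and these groups did not overlap. Its log2 fold change was −1.33 (SE 0.50, limma adjusted p = 0.338) and −0.23 with copies added. Gm10036, one of these copies, had 416, 435 and 810 CPM in KO_IgG replicates 1 to 3, fewer reads than Rpl11 in replicates 1 and 2 and more in replicate 3. Rpl29 gave 12, 5.85, 2.69 and 13.2 CPM in WT_IgG and 1.27, 14.5, 0.126 and 0.58 CPM in KO_IgG (log2 fold change −2.45, SE 1.04, limma adjusted p = 0.384), where the lowest 2 values are 2 and 5 reads. With copies added the log2 fold change of Rpl29 was −0.96.

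The other 5 members without overlap had few reads on copies in the early libraries, at most 38.7 CPM for Rpl31 and 9.24 CPM or less for Rps29, Rpl7, Rpl12 and Rpl26. In the late libraries, to which KO_IgG replicate 4 belongs, copies had 174 to 275 CPM for Rpl12, 124 to 213 CPM for Rpl26, 93.4 to 133 CPM for Rpl31 and 83.3 to 120 CPM for Rpl7. As CPM the groups of Rpl12 overlapped, with 612 CPM in KO_IgG replicate 2 against 594 CPM in WT_IgG replicate 2. Rpl31 gave 958, 1000, 1048 and 922 CPM in WT_IgG and 719, 881, 845 and 622 CPM in KO_IgG. Rps29, a small zinc-binding protein of the small subunit, gave 1779, 1744, 1623 and 1506 CPM in WT_IgG and 1338, 1487, 1359 and 822 CPM in KO_IgG. In both genes the late replicate 4 was the lowest, and the other 3 KO_IgG libraries also lay below every WT_IgG library. In the other direction the smallest p-values were those of Rps27l (log2 fold change 0.31, SE 0.18), Rps6 (0.53, SE 0.36), Rpl7a (0.22, SE 0.16) and Rpl22l1 (0.15, SE 0.13). Rps27l, a paralog induced by p53, gave 166, 250, 297 and 279 CPM in KO_IgG and 186, 195, 211 and 205 CPM in WT_IgG, so replicate 1 of KO_IgG lay below the wild type and the other 3 above.

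Blockade of the γδTCR was compared with IgG in IL-38 knockout tumors, on the KO_IgG libraries that also served against the wild type. The direction of the family turned with the treatment of copies. The median log2 fold change of 83 tested members was −0.07 against 0.02 over 16481 genes, with 35 members higher. With copies added it was 0.12, with 54 of 83 members higher. As CPM it was −0.25, on a scale on which the median of all genes was −0.15. Without KO_gdTCR replicate 2 the median was 0.01 and without KO_IgG replicate 2 it was 0.00. In limma 0 members passed (0% of all genes), and the smallest adjusted p was 0.072. At an unadjusted p under 0.05, 2 members were higher (background 12.7%) and 8 were lower (background 9%). In normalized counts of 1 member, Rpl14, all KO_gdTCR libraries lay above all KO_IgG libraries (background 4.57%), and in 3, Rpl22l1, Rpl7a and Rpl39, all lay below (background 4.98%). DESeq2 called Rpl10l, Rpl22l1 and Rpl7a, with 6.27% of all genes called, and edgeR called 0 members and 0% of genes. Rpl10l met the filter on mean counts only through its reads in KO_gdTCR, so its call is no separate support. Without KO_IgG replicate 4, when every control was an early and every treated library a late one, limma called 3 members, Rps15 and Rps3a1 higher and Rpl22l1 lower, with 14.3% of all genes called.

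Rpl22l1 gave 120, 120, 129 and 104 CPM in KO_IgG and 69.4, 68.2, 83.1 and 59.6 CPM in KO_gdTCR. The lowest control is the late library, and it lay above all 4 treated ones. The mean normalized count was 729 ± 156 against 1079 ± 84.4 (SD; log2 fold change −0.59, SE 0.16, limma adjusted p = 0.072), and the log2 fold change was −0.58 with copies added. DESeq2 gave an adjusted p of 0.0335 for this gene. Its partner Rpl22 gave 715, 742, 741 and 832 CPM in KO_IgG and 672, 723, 707 and 718 CPM in KO_gdTCR, which overlap. Rpl7a, a large-subunit protein, gave 314, 272, 272 and 262 CPM in KO_IgG and 170, 202, 178 and 204 CPM in KO_gdTCR (log2 fold change −0.39, SE 0.12, limma adjusted p = 0.0881). With copies added the log2 fold change of Rpl7a was 0.01. Rps2, at the messenger RNA entry of the small subunit, had −0.48 (SE 0.16, limma adjusted p = 0.112), which became 0.44 with copies added.

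Rps15 had a log2 fold change of 1.79 (SE 0.70, limma adjusted p = 0.163), and its 2 low controls were KO_IgG replicates 1 and 3 at 72.3 and 40.7 CPM. The late control at 334 CPM lay within the treated range of 280 to 762 CPM. Rps3a1 had 0.90 (SE 0.41), which was 1.64 with its copies added. Rpl14, which binds the large-subunit RNA, had 0.29 (SE 0.13), with normalized counts of 7115 ± 421 against 5832 ± 321 (SD, n = 4 each). In normalized counts the groups of Rpl14 did not overlap, while as CPM they did, at 598 to 712 CPM in KO_IgG and 647 to 738 CPM in KO_gdTCR. Rpl10l, the autosomal retrocopy of Rpl10 used in male germ cells, had 0 reads in all 18 early libraries. It had 2 reads in KO_IgG replicate 4 and 0, 5, 16 and 15 reads in KO_gdTCR. Over the groups, 36 reads against 2 give a ratio of 28.5 in CPM, with an exact 95% interval of 7.34 to 244 for counting error only. The interval leaves out the spread between libraries. The pooled controls include KO_IgG replicates 1 to 3, which are early libraries, so the ratio does not separate treatment from library number. The late control was at 0.232 CPM, against 0 to 2.55 CPM in KO_gdTCR. All of its reads came from late libraries.

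**Figure D5:**
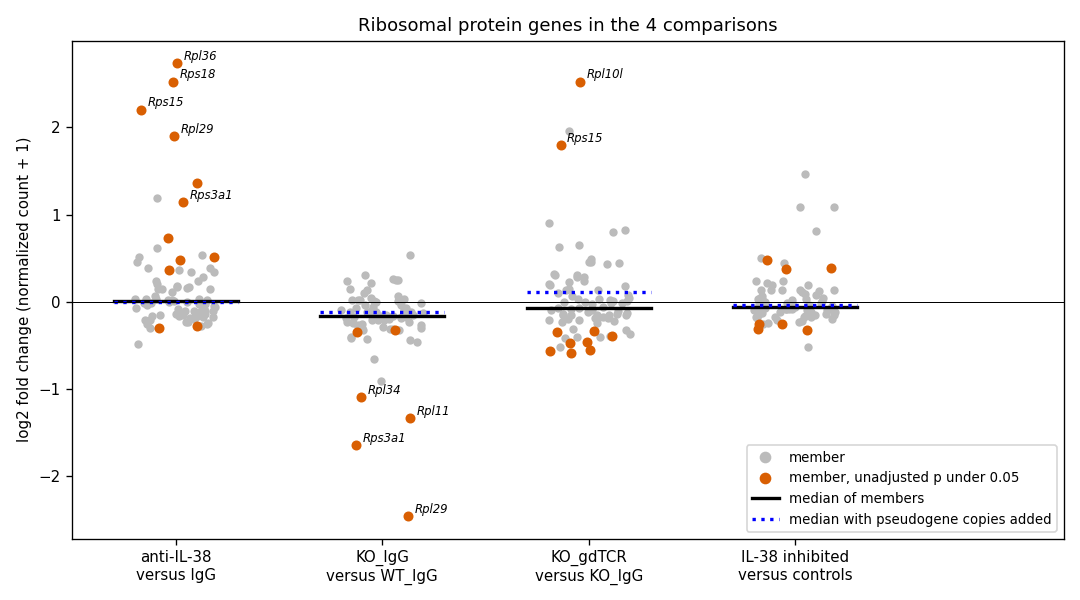
Log2 fold change of normalized count + 1 (vertical axis) of each tested member in the 4 comparisons (horizontal axis); orange points have an unadjusted limma p under 0.05, black bars are the median of the members and dotted blue bars the median with pseudogene copies added. The black bars lie at 0.00, −0.16, −0.07 and −0.05 and the dotted bar of KO_gdTCR versus KO_IgG lies at 0.12.

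Antibody and knockout tumors, 10 in all, were also set together against the 9 controls of both experiments, which reuses the libraries of the first 2 comparisons. The median log2 fold change of 82 members was −0.05 against 0.00 over 16352 genes, with 32 members higher. In limma 0 members passed (0% of all genes) and the smallest adjusted p was 0.300. Unadjusted, 3 members were higher (background 6.42%) and 4 lower (background 4.13%). DESeq2 called 0 members and 0.456% of all genes, and edgeR 0 members and 0.00612% (1 gene). Rpl15 came first with 275 ± 48.5 against 201 ± 54.2 normalized counts (SD, log2 fold change 0.48, SE 0.15, limma adjusted p = 0.300). Rpl35a had 0.39 (SE 0.15), Rpl17 0.38 (SE 0.17) and Rps6 0.45 (SE 0.23). The smallest p-values in the lower direction were those of Rpl31 with −0.26 (SE 0.10), Rps29 with −0.31 (SE 0.12), Rps20 with −0.25 (SE 0.10) and Rplp0 with −0.32 (SE 0.14), each with overlapping groups.

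The antibody and the knockout effects were compared by an interaction term over the 19 libraries of these groups. The median difference, antibody minus knockout, was 0.12 against 0.02 over all genes, with 63 of 82 members above 0, and 0 members passed in limma against 0.00612% of all genes (1 gene). Unadjusted, 8 members were above 0 (background 4.24%) and 1 below (background 3.43%). Rps3a1 had the smallest p of the members (difference 2.78, SE 0.69, limma adjusted p = 0.491), followed by Rpl29 (4.35, SE 1.15) and Rpl34 (1.71, SE 0.54). With copies added the effects on Rps3a1 were 0.61 for the antibody and 0.03 for the knockout, and those on Rpl29 were 1.16 and −0.96, and the term was not fitted on these sums. These 3 and Rps18 and Rps15, which also had an unadjusted p under 0.05, are among the members with the widest spread within groups.

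Among the paralogs, the muscle form Rpl3l was counted at 0.117 to 4.32 CPM and at 0 reads in KO_IgG replicate 4, against 248 to 671 CPM for Rpl3. Its highest values were 4.32 and 2.55 CPM in KO_gdTCR replicates 4 and 3 and 3.07 CPM in anti-IL-38 replicate 4. Rpl39l, used in male germ cells and some tumors, was at 0.624 to 3.59 CPM against 198 to 394 CPM for Rpl39. Rpl7l1 was at 64.6 to 144 CPM against 790 to 1424 CPM for Rpl7. Rpl22l1 was at 59.6 to 184 CPM against 503 to 879 CPM for Rpl22, and Rps27l at 166 to 297 CPM against 359 to 965 CPM for Rps27. In each of these pairs the core gene was above its paralog in every library. Rpl10 was at 50.2 to 199 CPM, with the 2 highest values at 199 CPM in KO_gdTCR replicate 3 and 153 CPM in anti-IL-38 replicate 4. Rps4x was at 82.0 to 214 CPM, and Rps4l is annotated as a pseudogene and is no member.

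The remaining members with well-known roles outside protein synthesis were less eventful. Rpl5, the partner of Rpl11, was at 89.3 to 231 CPM, with anti-IL-38 replicate 4 highest. Rps3, which also acts in DNA repair, was at 464 to 998 CPM. Rpsa, also called the laminin receptor, was at 118 to 262 CPM in all libraries except KO_IgG replicate 2, which had 399 CPM. Rpl10a, which was found on a subset of ribosomes, was at 17 to 61.5 CPM over all libraries and at 17, 23, 29.3 and 21.1 CPM in KO_gdTCR, which overlap the 22.8 to 40.2 CPM of KO_IgG. Its copies had a median of 50.1 CPM in late and 10.4 CPM in early libraries, so that Rpl10a and its copies together had a higher median late, at 67.0 CPM, than early, at 51.2 CPM.

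Genes that work with the ribosomal proteins were taken from lists and fitted in the same way. In limma, 0 genes of these lists had an adjusted p under 0.05 in any of the 4 comparisons, and the medians below are those of the first 3. Of all genes, 50.2%, 50.6% and 51.9% were higher in these 3 comparisons. Of 30 ribosome assembly factors, 3 were higher in anti-IL-38 than in IgG (median log2 fold change −0.12), 18 were higher in KO_IgG than in WT_IgG (0.03) and 9 were higher in KO_gdTCR than in KO_IgG (−0.14). At an unadjusted limma p under 0.05, 0, 0 and 1 of these 30 were higher, against 5.61%, 6.73% and 12.7% of all genes. In the lower direction 1, 0 and 6 were counted, against 4.91%, 5.4% and 9%. Of 12 tested RNA polymerase I genes, 2, 4 and 3 were higher, with medians of −0.13, −0.03 and −0.16. The 21 translation factors and other messages of the 5′ TOP class, such as the elongation factors Eef1a1 and Eef2, had medians of 0.00, −0.05 and 0.02, with 11, 7 and 11 of them higher. The 16 genes of mTORC1 and TOP control had −0.09, 0.03 and 0.07. Among them Rheb, the activator of mTORC1, had a log2 fold change of 1.38 (SE 0.35, limma adjusted p = 0.0657) in KO_gdTCR against KO_IgG. Its normalized counts were 1239 ± 298 against 534 ± 367 (SD), and the groups overlapped. At an unadjusted limma p under 0.05, 3 of the 16 genes were higher and 2 lower there, against 12.7% and 9% of all genes. The mitochondrial ribosomal proteins, which build another ribosome and are encoded by other genes, had medians of −0.09, −0.12 and −0.18, with 28 of 77, 19 of 76 and 21 of 76 higher. Unadjusted, 11 of 76 were lower and 2 higher in KO_gdTCR against KO_IgG, against 9% and 12.7% of all genes. The 10 p53 targets of the ribosomal stress response had −0.07, −0.12 and −0.11. Of the ribosomal proteins that the name rule leaves out, Fau was at 368 to 397 CPM in WT_IgG and 284 to 317 CPM in KO_IgG, which do not overlap (log2 fold change −0.32, SE 0.12, limma adjusted p = 0.342). In normalized counts the groups of Fau did not overlap either, as in 3.41% of all genes in this direction. Rack1 was at 1198 to 2387 CPM over all libraries.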

How the data were processed

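RNA of PyMT tumors was sequenced as QuantSeq 3′ mRNA libraries with single reads of 75 cycles, and BlueBee's QuantSeq pipeline was used by the authors on the reads. The submitters' processing notes name STAR, HTSeq, DESeq2 and GRCm39, with no versions or roles. The signal values that the authors deposited are normalized counts, in which the reads of a library are divided by 1 size factor, in a table of 19 libraries and a table of 8. The 4 KO_IgG libraries stand in both, with identical reads. Divided by what 1 read is worth in its library, the values gave whole reads for 100% of values within 0.0001%. In WT_IgG replicate 1 that value was 0.996, so whole reads cannot be told from rounding there.

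Of 47643 identifiers, 47224 had a symbol in GENCODE M21, which was used for names and gene types. Copies were assigned with BLAST 2.17.0. Whether counting used strand is not given in the sources used here. Depth was 6273049 to 15879164 reads per library. Limits of 3 reads and 95% intervals cover counting error only, since reads here carry no molecular identifiers.

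limma 3.58.1 (R 4.3.3) was fitted to log2(normalized count + 1) of all genes whose mean reached 5 normalized counts, with a trend in eBayes. Its two-sided p-values were adjusted by Benjamini-Hochberg over these genes, with a threshold of 0.05. For genes with few reads, fold changes are understated on this scale. Only the libraries compared entered each fit. The labels do not say that each library is a separate mouse, so p-values measure the spread between these libraries. edgeR 4.0.16 and DESeq2 1.42.0 were run on the whole reads. The fits were run on simulated counts with large planted changes and the same dispersion for all genes. That run does not show how they perform for small changes or for members with a wide spread. No libraries of a group were duplicates (chi-square per degree of freedom 17.1 to 138).

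The members, lists and tests were chosen with earlier results of these data known. Genes named are the paralogs and their partners, members with well-known roles, the 4 members with the smallest limma p in each direction per comparison, the 8 members with the most copy reads, and the genes that follow the member sum most closely. Others were chosen after their values were seen. Results on a few single genes are not reported here, though they stay in all counts and medians.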

Additional observations from a re-analysis of the deposited data

Results flagged for a closer look

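Single libraries far from the rest of their group were looked for in 245 groups of values, over 45 named members and 4 shares, and 20 were found, where chance gives about 1 in 20 groups. Replicate 4 of anti-IL-38 accounts for 5 of them, with Rpl12 at 784 CPM (next 572), Rplp2 at 1086 CPM (next 547), Rps15 at 835 CPM (next 414), Rps18 at 324 CPM (next 154) and Rpsa at 262 CPM (next 157). It is also the library with the highest share on members. Replicate 4 of KO_IgG accounts for another 5, with copies named by symbol at 3.38% of ribosomal protein reads (next 0.529%), Rpl10l at 0.232 CPM (the others at 0), Rpl15 at 27.5 CPM (next 19.8), Rpl39l at 2.90 CPM (next 1.35) and Rplp1 at 2030 CPM (next 2986).

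In KO_IgG replicate 2, Rpl29 was at 14.5 CPM (next 1.27) and Rpsa at 399 CPM (next 156). In WT_IgG replicate 1, Rpl34 was at 612 CPM (next 220) and Rpl7 at 1328 CPM (next 1220). In WT_IgG replicate 2, Rps13 was at 814 CPM (next 993) while copies named by symbol took 1.19% (next 0.511%), and Rps13-ps1 was at 388 CPM in that library. In WT_IgG replicate 3, Rpl3l was at 1.69 CPM (next 0.783). In IgG, Rpl7 was at 1424 CPM in replicate 2 (next 1125) and Rps20 at 1242 CPM in replicate 3 (next 1673). In KO_gdTCR replicate 2, Rpl34 was at 352 CPM (next 59.4). The causes were not tested.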

How the results depend on the processing

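Tried were other pseudocounts (0.5, 5) and filters (none, a mean of 20), TMM, quantile and CPM scaling, a total without members, Gm42418 and mitochondrial genes, edgeR, DESeq2, copies added, the experiment as a term, and each library left out. Under DESeq2 the count of members past 0.05 was 1 for the antibody, 1 for the knockout and 3 for the γδTCR blockade. These 3 include Rpl10l, which met the filter only through its reads in KO_gdTCR. In limma, leaving out libraries gave 0 to 3 for the γδTCR blockade (3 without KO_IgG replicate 4) and 0 for the others. The knockout median moved to −0.116 in edgeR, −0.118 with copies added and −0.117 after quantile normalization, and to −0.172 to −0.118 without single libraries (−0.118 without KO_IgG replicate 1). As CPM the knockout median was −0.186, with 13 of 82 members higher, and the median over all genes was −0.0199. The γδTCR median reversed to 0.116 with copies added, was −0.251 as CPM, and ran from −0.0799 to 0.00566 without single libraries (the last without KO_gdTCR replicate 2). Without single libraries the antibody median ran from −0.069 to 0.0331 and the pooled median from −0.0989 to −0.0309.

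Without Gm42418 and mitochondrial genes in the total, the mean share on members was 5.89% in IgG, 5.94% in WT_IgG, 5.30% in KO_IgG and 5.05% in KO_gdTCR. With copies added it was 4.94% in KO_IgG and 4.96% in KO_gdTCR. With both, an alternative chosen after seeing the data, it was 6.01% in IgG, 5.69% in anti-IL-38, 6.06% in WT_IgG, 5.67% in KO_IgG and 6.17% in KO_gdTCR. The mean share of ribosomal protein reads on copies was 2.10% in libraries 1 to 18 and 17.6% in libraries 19 to 23 with copies assigned by sequence. With copies assigned by symbol alone it was 0.679% and 3.84%, so the size of the share depends on the assignment. Single genes reversed with copies added in 3 cases, Rps3a1 in the knockout (0.0298) and Rpl7a (0.0135) and Rps2 (0.439) in the γδTCR blockade. Alternatives were counted for 32 pairs of gene and comparison. These cover 22 members, chosen for the smallest limma p in each direction of a comparison. Of 758 values of these pairs under alternatives, 747 kept their direction and side of the threshold and 8 passed it only under the alternative. The pairs were picked by p in the same data, and none passed the threshold in the main limma fit. The count of 747 therefore does not measure how stable the members are.

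Replicate numbers did not pair the samples, as the correlations of deviations of same-numbered libraries were −0.17 to 0.075 in the pairs compared. With the number as a replicate block the medians were 0.03, −0.16, −0.07 and −0.05, with 0 members called. Depth limits Rpl10l, Rpl3l and Rpl29, whose counts are near the limit of 3 reads in single libraries.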
